A study of Mus musculus with 12 samples.

Results

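The Notch pathway and the secretory fate factor Atoh1 were examined in intestinal stem cells (ISCs) of young and old mice. The members were chosen by name: the receptors Notch1 and Notch2, the ligands Dll1, Dll4 and Jag1, the nuclear effector Rbpj, the Hes factors Hes1 and Hes6, and the secretory fate factors Atoh1 and Gfi1. These are 10 genes of 54232 in the count table, and all 10 passed the filter on low counts with 13368 genes in all. The ISCs came from small intestinal crypts of female mice, 2 months (young) or 22 months (old) of age, with 1 mouse behind each of the 12 libraries. In SM6, the mice were C57/Bl6 wild type, and in Lgr5-GFP they carried the Lgr5-EGFP-IRES-CreERT allele, in which the Lgr5 locus drives a fluorescent reporter and an inducible recombinase. Each isolation held 3 young and 3 old libraries. The labels spell the reporter allele Lgr5-EGFP-IRES-CreERT, whereas the methods of the study name Lgr5-EGFP-IRES-CreERT2. No induction of the recombinase is named in the labels. Strain and isolation change together, so they cannot be told apart. The protocol in the labels gives for every library a sort on surface proteins (positive for EPCAM and CD166, high for EPHB2 and CD44, medium for CD24, low for GRP78, and without CD45 or CD31), whereas text supplementing the study has reporter mice sorted on GFP.

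Notch signalling passes between neighbouring cells. A ligand of the Delta-like or Jagged family on one cell binds a Notch receptor on the next, the receptor is cut, and its intracellular part enters the nucleus, where it joins RBPJ and turns on genes such as Hes1. In intestinal crypts, HES1 represses Atoh1, and cells with active Notch remain stem cells or become absorptive enterocytes. Cells that escape Notch express Atoh1, which directs them to the secretory fates of Paneth, goblet and enteroendocrine cells, and such cells present DLL1 and DLL4 to their neighbours.

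Values are CPM, counts divided by a library total (set to 1e+06 counts) that TMM scaling had adjusted for differences in RNA composition. Library totals ran from 970472 to 3815425 counts. Lgr5, the defining receptor of ISCs, was detected in every library, at 217 to 356 CPM. A pair of libraries stood apart in transcripts of defensins, the antimicrobial peptides of Paneth cells, which took 23.2% of the counts in Lgr5-GFP young replicate 1 and 23.1% in SM6 old replicate 3, against 1.26 to 12.4% elsewhere. Mitochondrially encoded transcripts took 4.02 to 6.29% of the counts in Lgr5-GFP young and 7.37 to 9.33% in Lgr5-GFP old, without overlap, and 6.39 to 7.01% and 5.77 to 6.85% in SM6 young and old, with overlap. Their part in the age effects was not tested. Of 10 immune markers 2 were at 0 in all 12 libraries, and the list summed to 1 to 110 counts per library, most of them from Lyz2 and Gzma, whereas Ptprc, which encodes CD45, reached at most 6 counts. In CPM the immune sum ran from 6.07 to 25.5 in SM6 young, 10.1 to 24.8 in SM6 old, 17.8 to 39.7 in Lgr5-GFP young and 0.964 to 12.2 in Lgr5-GFP old, so that only in Lgr5-GFP did the ages not overlap, and its part in any result was not tested. Of 10 endothelial and stromal markers 4 were at 0 in all libraries (Kdr, Tek, Col3a1 and Pdgfra), and the list summed to 0 to 12 counts. Fewer cells of a type and less RNA per cell cannot be told apart in sorted bulk samples.

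The bases before the start sites of Notch2 and Atoh1, the genes with an age effect past the threshold in SM6, are printed here with those of Rbpj, the only matched member whose window held the RBPJ core. RefSeq (GRCm38.p6) gave such windows of 250 bases for every member but Hes1, whose window was not searched, in the direction of transcription, and capitals mark a core match. The cores searched, on both strands, were TGGGAA or its reverse TTCCCA for RBPJ, and CAGCTG, which is its own reverse, for the E-box bound by helix-loop-helix factors such as ATOH1. The windows are chr3:98013288-98013537, plus strand, for Notch2, chr6:64728875-64729124, plus strand, for Atoh1, and chr5:53590096-53590345, plus strand, for the first of a pair of overlapping windows of Rbpj.
Notch2: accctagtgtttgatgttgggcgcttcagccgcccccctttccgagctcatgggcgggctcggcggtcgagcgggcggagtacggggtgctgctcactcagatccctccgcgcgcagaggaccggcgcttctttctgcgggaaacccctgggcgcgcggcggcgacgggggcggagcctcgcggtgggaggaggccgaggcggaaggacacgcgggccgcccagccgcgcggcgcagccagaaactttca
Atoh1: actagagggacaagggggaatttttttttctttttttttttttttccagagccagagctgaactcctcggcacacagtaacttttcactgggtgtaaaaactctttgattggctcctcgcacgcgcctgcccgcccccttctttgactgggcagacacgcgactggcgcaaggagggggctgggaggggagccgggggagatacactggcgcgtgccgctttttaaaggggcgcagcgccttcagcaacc
Rbpj: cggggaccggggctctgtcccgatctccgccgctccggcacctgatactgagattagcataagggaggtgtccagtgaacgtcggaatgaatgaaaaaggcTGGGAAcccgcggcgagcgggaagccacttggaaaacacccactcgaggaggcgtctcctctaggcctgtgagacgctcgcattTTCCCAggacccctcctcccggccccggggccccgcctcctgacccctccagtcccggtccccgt
The RBPJ core stood at bases 102 and 186 of the Rbpj window, counted from its 5′ end, and was held by 21.6% of the 32851 windows of the same length. The E-box core stood in a window of 3 of the 9 members with windows (Hes6, Jag1 and Dll1). It was held by 13.0% of all windows. Hes6, Dll1, Rbpj and Gfi1 had a pair of windows each and counted when either matched. Counts of members and shares of windows are thus not like for like. No match says only that these letters are missing from these 250 bases.

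The receptor Notch2 was lower in every library of old ISCs than in every library of young ISCs, with a test past the threshold in SM6 and on average over the isolations. Notch2 (ENSMUSG00000027878, chr3:98013527-98150361, plus strand) encodes 1 of the receptors through which crypt cells receive Delta-like and Jagged signals. In SM6 young, Notch2 stood at 157, 209 and 235 CPM in replicates 1 to 3, and in SM6 old at 30.4, 44.8 and 101. In Lgr5-GFP young it stood at 175, 149 and 182 CPM, and in Lgr5-GFP old at 63.3, 102 and 47.3. Every old library was thus below every young library, within each isolation and across them, and the highest old libraries were SM6 old replicate 3 and Lgr5-GFP old replicate 2. Old libraries were all below young libraries in both isolations for 1.29% of all tested genes, in SM6 alone for 9.78% and in Lgr5-GFP alone for 7.95%.

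**Figure D1:**
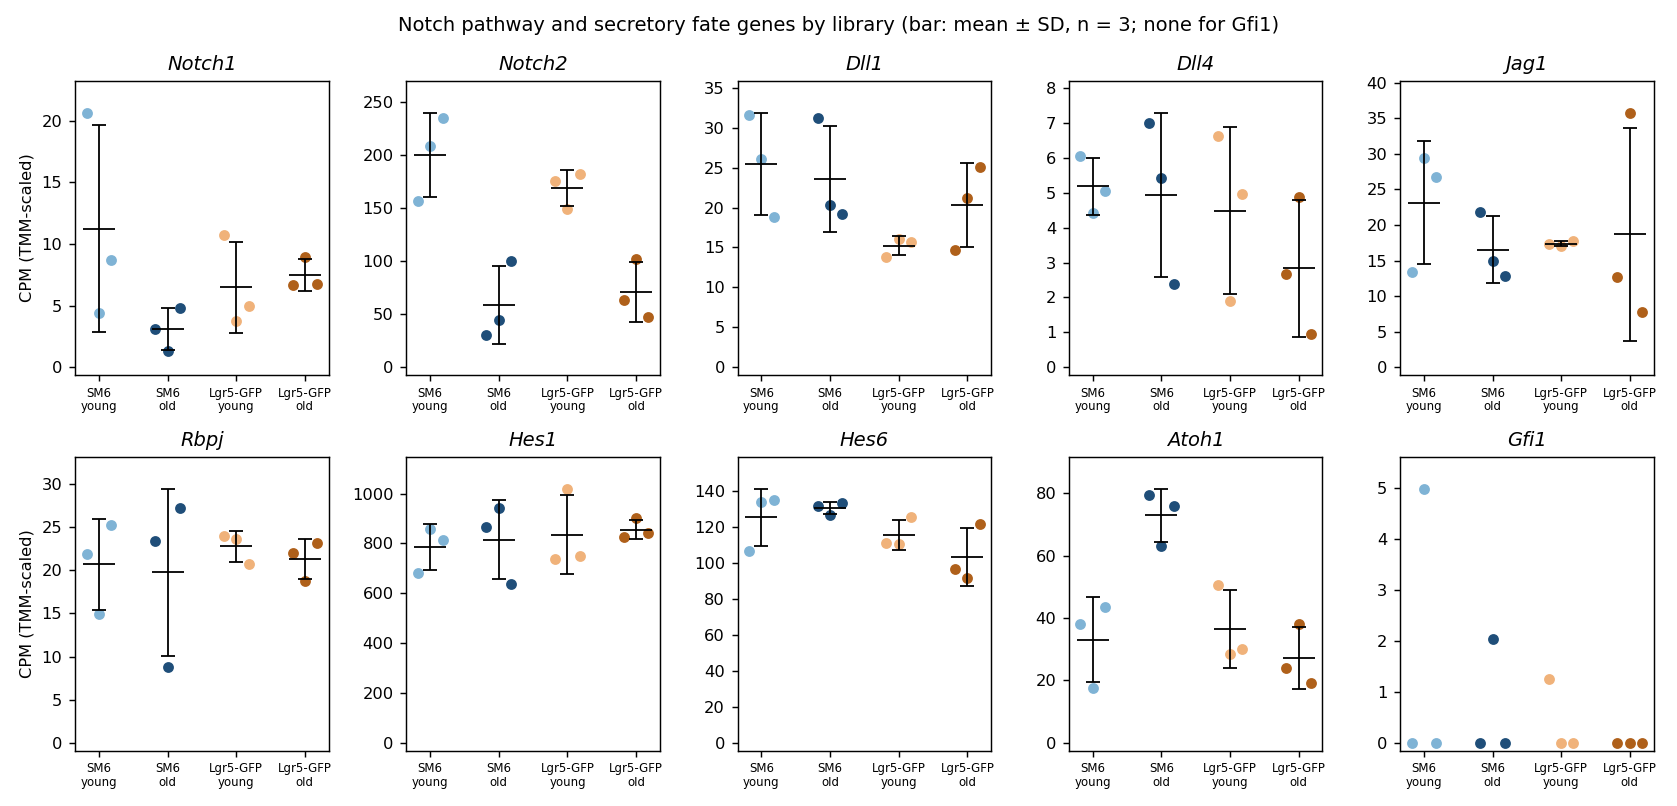
Level of each of the 10 genes in CPM (TMM-scaled, linear axis from 0) in the 12 libraries, with 1 point per library, and a bar for the mean ± SD of each group of 3 (no bar for Gfi1, which was at 0 in most libraries). Notch2 was lower in the old libraries of both isolations, Atoh1 was higher in SM6 old than in every other group, and Hes1, Hes6 and Rbpj overlapped between the ages.

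The mean level of Notch2 was 200.3 ± 39.6 CPM (SD, n = 3) in SM6 young and 58.6 ± 37.1 in SM6 old, a fall of 3.43 times (log2 fold change -1.78, SE 0.30, 95% interval -2.47 to -1.09, edgeR adjusted p = 0.00137). In Lgr5-GFP the mean was 169 ± 17.3 CPM in young and 71.0 ± 28.4 in old, 2.38 times lower (log2 fold change -1.25, SE 0.29, 95% interval -1.93 to -0.57), which missed the threshold with an edgeR adjusted p of 0.0543. Averaged over both isolations, Notch2 fell by 1.51 on the log2 scale (SE 0.21, edgeR adjusted p = 0.000162), or 2.86 times. The age effects of the isolations differed by 0.53 (SE 0.42, edgeR adjusted p = 0.754), a difference that was not past the threshold. Without both libraries rich in defensin, Notch2 was called in SM6 (log2 fold change -2.39, edgeR adjusted p = 4.33e-05) and in Lgr5-GFP (-1.22, adjusted p = 0.0182). The call in Lgr5-GFP was also gained without Lgr5-GFP old replicate 2 (-1.60, adjusted p = 0.0156), SM6 old replicate 1 (-1.25, adjusted p = 0.0316) or SM6 old replicate 3 (-1.25, adjusted p = 0.00450), and the adjusted p ran from 5.81e-08 to 0.323 over 11 other settings.

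The summed level of 11 stem cell markers, most of it from Olfm4, was lower in SM6 old, as Notch2 was. It ran from 13178 to 16322 CPM in SM6 young and from 8367 to 9539.8 in SM6 old, without overlap, and from 12900.2 to 14677 (young) and 11007 to 12647 (old) in Lgr5-GFP, also without overlap. With library totals alone the sums overlapped in Lgr5-GFP, at 11500.2 to 14127 (young) and 12037 to 13513 (old) CPM, and not in SM6. Of these markers, 3 of 11 fell in SM6 (Olfm4, Sox9 and Znrf3) and 0 were called in Lgr5-GFP, beside 1.77% of all tested genes called lower in SM6, and none was at 0 in any library. Znrf3 was called in 8 of 12 fits with 1 library left out, with an edgeR adjusted p of up to 0.104 (without SM6 old replicate 2). Olfm4 held 170467 counts over the 12 libraries, and Sox9, the next highest of these markers, held 24870. The estimated age effect, called or not, was negative for 10 of 11 in SM6 (median log2 -0.39). In Lgr5-GFP it was negative for 9 of 11 (median -0.07). The part of the stem cell markers in the fall of Notch2 was not tested. The longest annotated transcript of Notch2 has 10500 bases, which puts the gene among the longest 25% of tested genes. Among these, 3.05% of genes were called lower in SM6 old, against 0.299% among the shortest 25%, and 63 of the 3339 longest genes had a more negative age effect in SM6 than Notch2. The part of transcript length was not tested. On the same strand, Notch2 overlaps the annotated genes Gm42819 and Gm42820, and how shared reads were assigned is not given in the sources used here.

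Notch1 (ENSMUSG00000026923, chr2:26457903-26516663, minus strand), the other receptor of the set, was scarce. Replicates 1 to 3 had 34, 8 and 12 counts in SM6 young and 4, 2 and 6 in SM6 old, and 34, 4 and 12 (young) and 10, 11 and 7 (old) in Lgr5-GFP. In CPM, SM6 young stood at 20.6, 4.43 and 8.67 and SM6 old at 3.12, 1.36 and 4.79, and these groups overlapped because SM6 young replicate 2 was below SM6 old replicate 3. The age effect in SM6 was -1.87 on the log2 scale (SE 0.62, 95% interval -3.29 to -0.44), and missed the threshold with an edgeR adjusted p of 0.134. In Lgr5-GFP the age effect was 0.10 (SE 0.56, adjusted p = 0.980). The interval in SM6 holds both the age effect of Notch2 and much smaller ones. Notch1 overlaps a pair of genes on the opposite strand, 0610009E02Rik and Gm13568, and Mir6996 on its own strand. Dll1, Dll4, Rbpj and Gfi1 each overlap at least 1 annotated gene on the opposite strand, and reads of such pairs could not be told apart without a stated strand setting.

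The ligands did not differ past the threshold between young and old in either isolation. Dll1 (ENSMUSG00000014773, chr17:15367354-15376872, minus strand), the Delta-like ligand of secretory precursors, ranged from 18.8 to 31.6 CPM in the young and 19.2 to 31.2 CPM in the old SM6 libraries, and from 13.9 to 16.1 and 14.7 to 25.1 CPM in those of Lgr5-GFP, so the ages overlapped. Its age effect was -0.12 in SM6 (95% interval -0.79 to 0.55, edgeR adjusted p = 0.925) and 0.41 in Lgr5-GFP (-0.31 to 1.12, adjusted p = 0.739). Between the isolations, Dll1 was -0.50 on the log2 scale in Lgr5-GFP relative to SM6 (SE 0.21), with an edgeR adjusted p of 0.572.

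Dll4 (ENSMUSG00000027314, chr2:119325784-119335962, plus strand), the second Delta-like ligand, was at 1 to 21 counts per library, and its level was 5.19 ± 0.824 CPM (SD, n = 3) in young and 4.95 ± 2.35 CPM in old ISCs of SM6 and ran from 1.89 to 6.62 and 0.964 to 4.88 CPM in those of Lgr5-GFP, with overlap of the ages in both. The age effects of Dll4 were -0.06 in SM6 (95% interval -1.47 to 1.35) and -0.73 in Lgr5-GFP (-2.23 to 0.77), with edgeR adjusted p = 0.987 and 0.790 and intervals that span both directions. Jag1 (ENSMUSG00000027276, chr2:137081456-137116644, minus strand), a ligand of the Jagged family, stood at 13.3, 29.4 and 26.7 CPM in SM6 young and 21.8, 14.9 and 12.8 in SM6 old, which overlapped. In Lgr5-GFP, the young libraries of Jag1 lay close together at 17.3, 17.0 and 17.8 CPM and the old ones were the most scattered of any group for this gene, at 12.7, 35.8 and 7.72. The age effect of Jag1 was -0.49 in SM6 (SE 0.40, edgeR adjusted p = 0.687) and 0.11 in Lgr5-GFP (SE 0.40, adjusted p = 0.969). Lgr5-GFP old replicate 2 set the sign of the latter, which was -0.73 without it (adjusted p = 0.642).

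The nuclear effector and the Hes factors showed age effects near 0, none of them past the threshold. Rbpj (ENSMUSG00000039191, chr5:53466152-53657362, plus strand), the DNA-binding partner of all Notch receptors, ranged from 8.82 to 27.2 CPM over the 12 libraries, with its lowest value in SM6 old replicate 2. Its age effect was -0.07 in SM6 (95% interval -0.84 to 0.70, edgeR adjusted p = 0.968) and -0.09 in Lgr5-GFP (-0.84 to 0.65, adjusted p = 0.966). Hes1 (ENSMUSG00000022528, chr16:30064384-30067796, plus strand), the repressor that Notch induces, stood at 681, 857 and 814 CPM in young SM6 libraries and 866, 941 and 639 in old ones, and in Lgr5-GFP at 738, 1020.0 and 748 (young) and 826, 900.2 and 841 (old). The ages overlapped in both isolations. The age effect of Hes1 was 0.06 in SM6 (SE 0.18, 95% interval -0.35 to 0.46, edgeR adjusted p = 0.947) and 0.04 in Lgr5-GFP (SE 0.18, 95% interval -0.37 to 0.44, adjusted p = 0.976). On average over the isolations it was 0.05 (95% interval -0.24 to 0.33), an interval that does not hold the age effect of Notch2. Hes6 (ENSMUSG00000067071, chr1:91411483-91414038, minus strand), a Hes family member that opposes HES1 and is expressed in secretory precursors, ranged from 91.9 to 135 CPM, and its age effect was 0.06 in SM6 (95% interval -0.33 to 0.45, edgeR adjusted p = 0.940) and -0.17 in Lgr5-GFP (-0.56 to 0.22, adjusted p = 0.812).

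Relative to Hes1 in the same library, Notch2 had a log2 ratio of -1.98 ± 0.17 (SD, n = 3) in SM6 young and -3.96 ± 1.14 in SM6 old, and of -2.29 ± 0.41 (young) and -3.66 ± 0.51 (old) in Lgr5-GFP. The log2 ratio of Atoh1 to Hes1 was -4.66 ± 0.81 in SM6 young and -3.47 ± 0.41 in SM6 old, and -4.55 ± 0.66 and -5.04 ± 0.45 in Lgr5-GFP young and old. The ratio of receptor to target was thus lower in old ISCs of both isolations, and the mean ratio of fate factor to repressor was highest in SM6 old. Scaling of library totals cancels in these ratios, which are given as a description. They compare groups, not the levels of the genes, since CPM are not set per length.

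**Figure D2:**
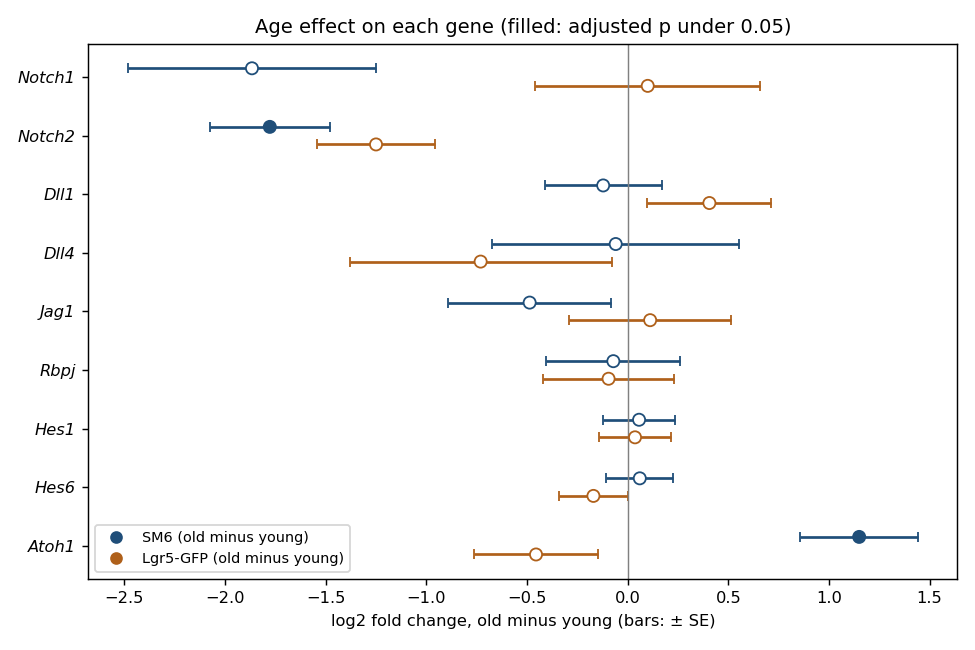
Age effect (log2 fold change, old minus young, linear axis) of 9 genes in SM6 (blue) and Lgr5-GFP (orange), with bars of ± SE. Filled points passed an edgeR adjusted p under 0.05, which held for Notch2 (-1.78) and Atoh1 (1.15) in SM6 and for no gene in Lgr5-GFP. Gfi1 is left out because most of its libraries were at 0.

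Atoh1, the transcription factor that commits crypt cells to the secretory lineage, was higher in old than in young ISCs of SM6. Atoh1 (ENSMUSG00000073043, chr6:64729125-64731245, plus strand) consists of 1 exon and overlaps no other annotated gene. It stood at 38.2, 17.7 and 43.4 CPM in SM6 young and at 79.5, 63.1 and 75.9 in SM6 old, from 63, 32 and 60 and 102, 93 and 95 counts. In Lgr5-GFP it stood at 50.7, 28.4 and 30.2 CPM in young and 24.0, 38.2 and 19.3 in old. The SM6 old libraries were thus above all 9 others, and the ages overlapped in Lgr5-GFP. Old libraries were all above young libraries in SM6 for 7.74% of all tested genes.

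The mean of Atoh1 was 33.1 ± 13.6 CPM (SD, n = 3) in SM6 young and 72.8 ± 8.61 in SM6 old, a rise of 1.15 on the log2 scale (SE 0.29, 95% interval 0.48 to 1.82, edgeR adjusted p = 0.0327). In Lgr5-GFP the means were 36.4 ± 12.4 and 27.2 ± 9.86 CPM in young and old, with an age effect of -0.46 (SE 0.31, 95% interval -1.17 to 0.26, adjusted p = 0.684). The difference between these age effects (Lgr5-GFP minus SM6) was -1.61 (SE 0.42, 95% interval -2.58 to -0.63), and missed the threshold over all genes with an edgeR adjusted p of 0.103. Averaged over the isolations, the age effect of Atoh1 was 0.35 (adjusted p = 0.539), and Lgr5-GFP relative to SM6 was -0.61 (adjusted p = 0.395). Leaving out single libraries ended the call in SM6. The edgeR adjusted p was 0.127, 0.0618 and 0.0593 without SM6 old replicates 1, 2 and 3 (log2 fold change 1.10, 1.25 and 1.13), and 0.228 without SM6 young replicate 2 (0.84). It was also lost with library totals alone (0.99, adjusted p = 0.0514) and when the defensin share entered as a covariate (1.08, adjusted p = 0.0891), while it held without both libraries rich in defensin (1.13, adjusted p = 0.0379), and the adjusted p ran from 0.000333 to 0.0891 over all 11 other settings.

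Gfi1 (ENSMUSG00000029275, chr5:107716657-107726036, minus strand), a zinc finger repressor downstream of ATOH1 that favours goblet and Paneth over enteroendocrine fate, was at the edge of detection. Its counts were 0, 9 and 0 (young) and 0, 3 and 0 (old) in SM6, and 4, 0 and 0 (young) and 0, 0 and 0 (old) in Lgr5-GFP, so 9 of 12 libraries were at 0. Gfi1 passed the filter through SM6 young replicate 2 alone. A count of 0 allows up to 3 counts, no fold is given, and an age difference in Gfi1 was not detectable at this depth.

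Counted over the comparisons, 2 of the 10 members were called for age in SM6 (edgeR adjusted p under 0.05), where 2.42% of all 13368 genes were called in either direction and 1.77% were called lower in old. In Lgr5-GFP, 0 of 10 were called, against 0.471% of all genes, and on average over the isolations 1 of 10 (Notch2), against 2.66% in either direction and 2.06% lower in old. For the difference between the age effects 0 of 10 were called, against 0.658% of all genes, and between the isolations 0 of 10, against 0.352%. At an unadjusted p under 0.05 the members were 3 in SM6, 1 in Lgr5-GFP, 2 for the difference and 2 between the isolations, and the all-gene numbers were 1755, 1309, 1260 and 1028 of 13368. The median age effect over the 9 members other than Gfi1 was -0.07 in SM6 and -0.09 in Lgr5-GFP on the log2 scale, beside -0.01 and -0.03 over all tested genes. The age comparisons of the isolations contrast separate libraries but share 1 estimate of spread per gene. The average and the difference are built from both comparisons.

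Markers of goblet cells moved with Atoh1 in SM6. Of 9 goblet cell markers, 6 rose in SM6 old, with the smallest edgeR adjusted p for Agr2, Tff3 and Muc2. These encode mucus proteins or a factor for their folding. Among the 6, Zg16 (1.79), Ccl6 (1.54) and Spink4 (1.41) had the largest log2 fold changes. In Lgr5-GFP old, 1 fell (Ccl6). Of all tested genes, 0.643% were called higher in SM6 old and 0.284% lower in Lgr5-GFP old. The goblet count in SM6 rested on single libraries. It was 1 (Agr2) without SM6 young replicate 2, 2 when SM6 young replicate 3 was left out, 3 when SM6 old replicate 2 was, and 4 to 6 without any other library. The summed goblet level ran from 5951 to 9530.4 CPM in SM6 young and 17837 to 19134 in SM6 old, and from 5562 to 14905 (young) and 3263 to 5632 (old) in Lgr5-GFP. Of 14 Paneth cell markers, 2 rose in SM6 old (Defa21 and Defa22) and 2 fell in Lgr5-GFP old (Mmp7 and Defa17), and the summed level ran from 10991 to 67887, 44392 to 274275, 43479 to 246062 and 18443 to 31252 CPM in the order SM6 young and old, then Lgr5-GFP young and old. Of 12 enteroendocrine markers, 2 rose in SM6 old (Sct and Sst), and the summed level ran from 718 to 1342, 1013 to 3218, 129.5 to 268 and 61.7 to 159 CPM in the same order. Of 9 enterocyte markers, which mark the absorptive fate, 4 rose in SM6 old and 3 fell in Lgr5-GFP old, and the summed level ran from 1352 to 1559.5, 2095 to 8610.1, 1212 to 2495 and 1521 to 11344 CPM in the same order, with Lgr5-GFP old replicate 2 highest of all. In that library, Fabp1 alone held 12115 of the 13951 enterocyte counts. The estimated age effect in Lgr5-GFP was negative for 7 of 9 enterocyte markers, with a median of -1.29 on the log2 scale. The number of enterocyte markers that rose in SM6 was 0 when SM6 young replicate 2 or SM6 old replicate 1 was left out. It was 2 without SM6 young replicate 1 and 3 to 6 without any other library. The number that fell in Lgr5-GFP was 0 without Lgr5-GFP old replicate 1, Lgr5-GFP old replicate 3 or Lgr5-GFP young replicate 3, 1 without Lgr5-GFP young replicate 1, and 2 to 3 otherwise.

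With single libraries left out, 0 to 5 Paneth and 0 to 2 enteroendocrine markers rose in SM6 old, with 0 Paneth calls when SM6 young replicate 2, SM6 young replicate 3 or SM6 old replicate 3 was left out and 0 enteroendocrine calls when SM6 young replicate 1 or SM6 old replicate 3 was. In the same fits, 0 to 10 Paneth and 1 to 4 goblet markers fell in Lgr5-GFP old, with the most goblet calls without Lgr5-GFP young replicate 3 and the most Paneth calls without SM6 old replicate 3. Averaged over the isolations, the enterocyte markers Fabp1 and Fabp2 rose, Fabp2 in 4 of 12 fits with 1 library left out. Without both libraries rich in defensin, 7 goblet, 0 Paneth, 1 enteroendocrine and 6 enterocyte markers rose in SM6 old. In that fit 152 of 12876 tested genes were called higher in SM6 old, against 86 of 13368 with all libraries. For the difference between the age effects, 11 Paneth, 5 goblet, 5 enterocyte and 1 enteroendocrine markers were called, all with the lower age effect in Lgr5-GFP, as were 0.606% of all tested genes. These were 2, 6, 5 and 0 without both libraries rich in defensin, and 2 to 12, 4 to 6, 5 and 0 to 2 with single libraries left out, with 2 to 6 Paneth calls when Lgr5-GFP young replicate 1, Lgr5-GFP old replicate 1 or 2, SM6 young replicate 2 or SM6 old replicate 3 was left out. Between the isolations, 6 goblet and 6 enteroendocrine markers were called lower in Lgr5-GFP than in SM6 (3 to 7 and 5 to 6 with single libraries left out), where Atoh1 itself was not called and 0.352% of all tested genes were called in either direction. The part of other cell types in the level of Atoh1 was not tested.

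Each member was set against the summed Paneth, goblet and enteroendocrine markers over the 12 libraries, on log2(CPM + 1), which gave 30 relations. Atoh1 against goblet markers was the relation that passed after adjustment, with a Pearson r of 0.88 (permutation p = 0.00029, adjusted p = 0.0087) and a Spearman rho of 0.80 (permutation p = 0.00318, adjusted p = 0.0954). Without the 2 libraries farthest from the median goblet level, r was 0.83, and no relation then passed after adjustment. Within Lgr5-GFP, r was 0.81 (exact permutation p = 0.0556, adjusted p = 0.333), and within SM6 it was 0.91 (exact permutation p = 0.0153, adjusted p = 0.267), where young and old formed separate clusters of 3 libraries. These permutations exchange libraries across the groups, so r over all 12 libraries and within SM6 also holds the difference between the groups. Atoh1 against enteroendocrine markers had r of 0.64 (permutation p = 0.0278, adjusted p = 0.278) over all libraries, 0.97 (exact permutation p = 0.00417, adjusted p = 0.125) within Lgr5-GFP and 0.44 (exact permutation p = 0.342, adjusted p = 0.903) within SM6. No relation passed after adjustment within either isolation. Atoh1 against Paneth markers had r of 0.42 (permutation p = 0.171, adjusted p = 0.734), and Hes1 against goblet markers r of -0.23 (permutation p = 0.471, adjusted p = 0.871).

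**Figure D3:**
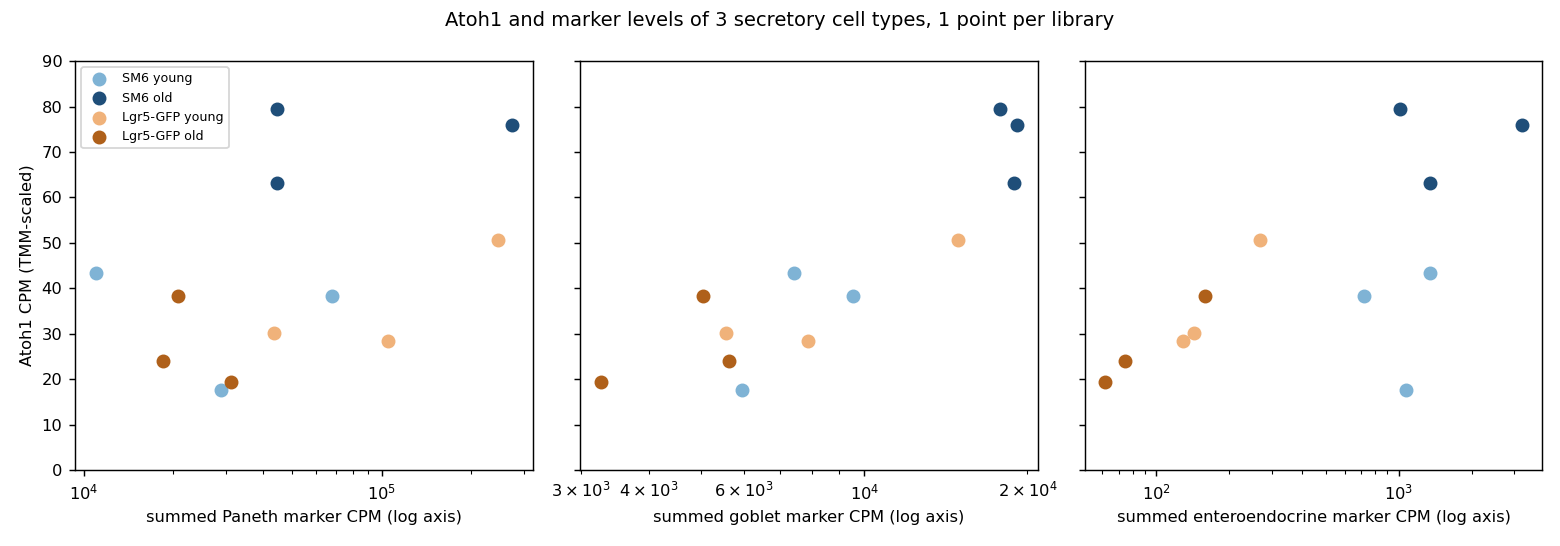
Atoh1 in CPM (linear axis from 0) against the summed CPM of Paneth, goblet and enteroendocrine markers (log axes), 1 point per library, coloured by group. The SM6 old libraries had the highest Atoh1 (63.1 to 79.5 CPM) and the highest goblet sums (17837 to 19134 CPM), and Lgr5-GFP young replicate 1, rich in Paneth markers, had the next highest of both.

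Genes whose level was most like that of a member over the 12 libraries were taken from 8327 genes with a mean of at least 10 CPM. For Atoh1 these were Guca2a (r = 0.91), Enpep (0.90) and Smim14 (0.87), for Dll1 they were 1700019D03Rik (0.90), Gsto1 (0.85) and Leng9 (0.82), and for Hes1 they were Rtraf (0.88), Rpl31 (0.87) and Psme1 (0.86). For Notch1 they were Arfgap3 (0.92), Tmem127 (0.86) and Dglucy (0.86). For Notch2, which was added after its values were seen, they were B4galt1 (0.98), Dctn5 (0.98) and Pan3 (0.98). These are Pearson r of log2(CPM + 1), the libraries share their groups, and the values are a description without a test.

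Beyond the 10 members, 72 genes of the pathway were listed and 54 were tested, of which 5 fell and 0 rose in SM6, 1 fell in Lgr5-GFP and, averaged over both, 6 fell, where 1.77%, 0.284% and 2.06% of all tested genes were called lower in old. The median age effect of the 50 with more than 3 counts in at least 1 library of every group was -0.17 in SM6, -0.09 in Lgr5-GFP and -0.15 over both. The receptors and ligands outside the set were scarce: 3 of 8 were tested and 0 called, with Notch3 at 1 to 9 counts per library. Of 13 tested genes of receptor cleavage and glycosylation, 2 fell in SM6. These were Adam10, the protease that makes the first cut of a ligand-bound receptor, and Psen2, a catalytic subunit of the gamma-secretase that makes the second.

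Adam10 stood at 361, 430.1 and 411 CPM in SM6 young and 131, 162 and 216 in SM6 old, without overlap (log2 fold change -1.24, SE 0.24, edgeR adjusted p = 0.00415). In Lgr5-GFP its age effect was -0.56 (SE 0.24, adjusted p = 0.428), and on average -0.90 (SE 0.17, adjusted p = 0.00292). Psen2 went from 30.4 ± 1.93 to 13.7 ± 6.13 CPM (SD, n = 3) in SM6, a log2 fold change of -1.15 (SE 0.31, edgeR adjusted p = 0.0435), and had an age effect of -0.59 in Lgr5-GFP (adjusted p = 0.558). Neither gene was called for a difference between the isolations in its age effect (adjusted p = 0.537 and 0.754). Adam10 lost its call in SM6 without SM6 old replicate 1 (-1.07, adjusted p = 0.0564), and Psen2 was called in 4 of 12 fits with 1 library left out, with an adjusted p of up to 0.222 (without SM6 old replicate 2). Without both libraries rich in defensin, both genes were called (Adam10 -1.44, adjusted p = 0.00139, and Psen2 -1.56, adjusted p = 0.00997). Of 19 tested coactivators and corepressors, 1 fell in SM6, the histone acetyltransferase Crebbp (-0.82, SE 0.19, edgeR adjusted p = 0.0165). Of 11 genes of trafficking and turnover, 0 were called in SM6 and 1 fell on average, the ubiquitin ligase Dtx3l (-0.79, SE 0.18, adjusted p = 0.0173). With 1 library left out, Crebbp was called in 8 of 12 fits (edgeR adjusted p up to 0.116, without SM6 old replicate 2). On average, Dtx3l was called in 8 of 12 (up to 0.0676, without SM6 old replicate 1) and Psen2 in 3 of 12. The pathway calls lost without SM6 old replicate 1 were Adam10, Psen2 and Crebbp in SM6, and Crebbp, Dtx3l and Psen2 on average. When both libraries rich in defensin were left out, 2 genes of trafficking and turnover were called lower in SM6, Dtx3l (-1.19, adjusted p = 0.0115) and the ubiquitin ligase subunit Fbxw7 (-1.21, adjusted p = 0.0388), and on average (Dtx3l -1.01, adjusted p = 0.00164, and Fbxw7 -0.90, adjusted p = 0.0213), where Fbxw7 is named after its values were seen.

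Of 14 listed Notch target genes, 8 were tested, and Hey1, Hey2 and Hes3 were at 0 in every library. In SM6, 2 fell. Olfm4, a stem cell marker that Notch maintains, went from 10728 ± 1308 to 5995 ± 579 CPM (log2 fold change -0.84, SE 0.16, edgeR adjusted p = 0.00342), and Sox9, a transcription factor of the crypt base, went from 1708 ± 275 to 850.0 ± 135 (-1.01, SE 0.19, adjusted p = 0.00358). Both kept their calls with each library left out. Both genes are also on the stem cell list, so the lists are not separate evidence. In Lgr5-GFP, 1 fell, the cell cycle inhibitor Cdkn1a (-1.23, SE 0.25, edgeR adjusted p = 0.0266), whose age effect in SM6 was 0.61 (adjusted p = 0.220). That call was lost without Lgr5-GFP young replicate 1 (-0.94, adjusted p = 0.187), Lgr5-GFP old replicate 1 (-1.10, adjusted p = 0.156) or Lgr5-GFP old replicate 3 (-1.20, adjusted p = 0.0926), and without both libraries rich in defensin (-0.94, adjusted p = 0.147).

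**Figure D4:**
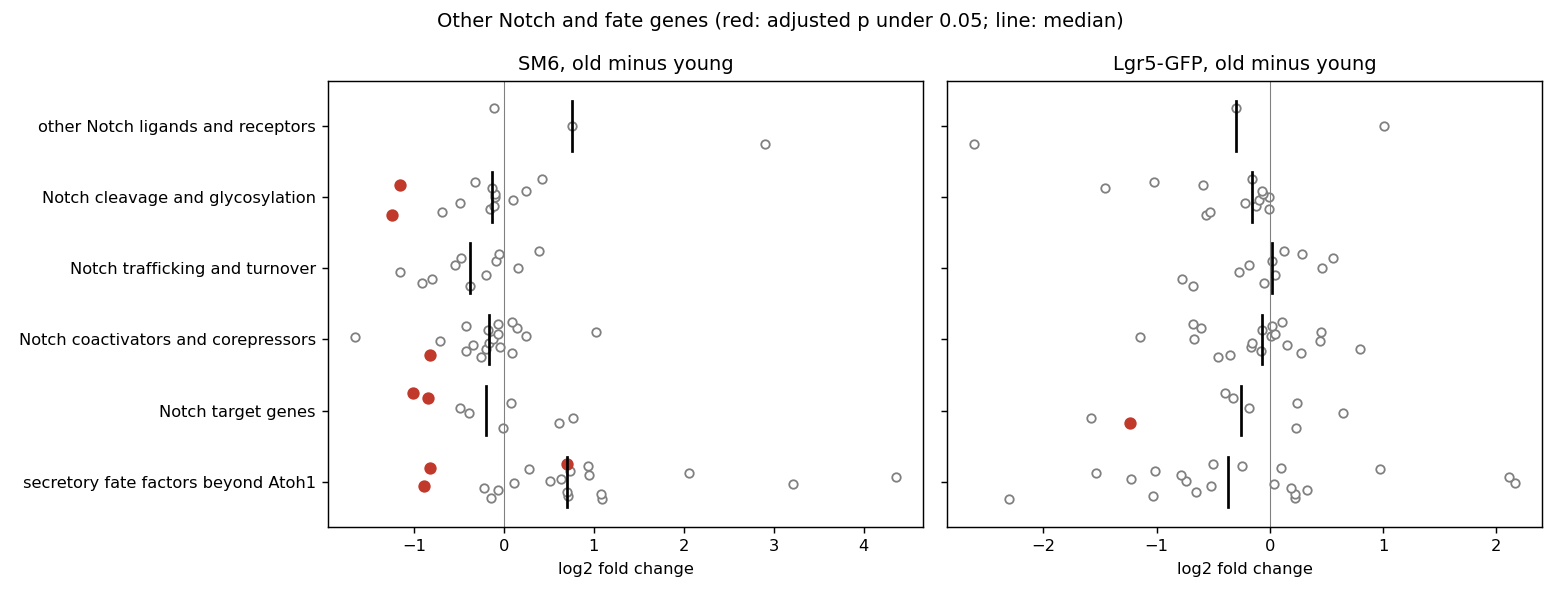
Age effect (log2 fold change, old minus young) of the tested genes of 6 lists in SM6 and Lgr5-GFP, 1 point per gene, red where the edgeR adjusted p was under 0.05, with a line at the list median. Red points lie below 0 in the Notch lists of SM6, and the fate factors hold both directions. The horizontal axes of the panels differ.

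Of 23 listed factors that act with or after Atoh1, 20 were tested, 1 rose and 2 fell in SM6, and 0 were called in Lgr5-GFP, beside 0.643% of all tested genes called higher and 1.77% called lower in SM6 and 0.471% called in Lgr5-GFP. The estimated age effect, called or not, was positive for 15 of 20 in SM6 and 9 of 20 in Lgr5-GFP. The median age effect of the 13 with more than 3 counts in at least 1 library of every group was 0.64 in SM6 and -0.50 in Lgr5-GFP. Xbp1, which drives the secretory apparatus of Paneth and goblet cells, went from 152 ± 12.3 to 247 ± 41.3 CPM in SM6 (log2 fold change 0.70, SE 0.17, edgeR adjusted p = 0.0272) and had an age effect of -0.50 in Lgr5-GFP (adjusted p = 0.271). Foxa3, a forkhead factor of the gut epithelium, fell in SM6 (-0.89, SE 0.18, adjusted p = 0.00700) and on average (-0.71, SE 0.13, adjusted p = 0.00244). Sox4, which acts in enteroendocrine and tuft cell precursors, fell in SM6 (-0.82, SE 0.21, adjusted p = 0.0360). Spdef, the goblet and Paneth cell factor downstream of ATOH1, was at 11.4 ± 5.97 CPM in SM6 young and 21.9 ± 5.46 in SM6 old, with an age effect of 0.94 that missed the threshold (SE 0.41, adjusted p = 0.312), and it is named here after its values were seen. With 1 library left out, the calls in SM6 held in 8 of 12 fits for Xbp1, 11 of 12 for Foxa3 and 7 of 12 for Sox4, with edgeR adjusted p up to 0.156 (without SM6 young replicate 2), 0.0621 and 0.217 (both without SM6 old replicate 2). Without both libraries rich in defensin, Xbp1 was not called (0.56, adjusted p = 0.0937). Neurog3, the enteroendocrine fate factor, had at most 6 counts in any library.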

How the data were processed

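3′ RNA sequencing libraries of ISCs from 12 mice were analysed, in 4 groups of 3 taken from the sample titles, with no replicates pooled. The authors aligned reads to GRCm38 with STAR 2.4.2a and counted them over GENCODE exons with featureCounts, and the deposited values are these read counts per gene, unscaled. The kit added molecular identifiers. Whether reads were collapsed by them, and the strand setting, are not given in the sources used here, so counts may include PCR copies and floors cover counting error only. Positions come from GENCODE vM21 on the same build. Of 54232 genes, 54079 had a symbol.

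Tests used edgeR 4.0.16 in R 4.3.3 (TMM scaling and the quasi-likelihood test, two-sided, 1 mean per group over all 12 libraries). Genes with more than 5 reads and at least 1 CPM in at least 1 library were kept. The Benjamini-Hochberg adjustment ran over 13368 genes, and an adjusted p under 0.05 made a call. P-values measure the spread between mice within groups, estimated together over the 4 groups of 3. A comparison in 1 isolation thus also draws on the spread in the other. Every pair of replicates differed by more than counting noise. Old was compared with young in each isolation, on average and as a difference between isolations (Lgr5-GFP minus SM6), and isolations were compared on average. The test was also run on simulated data, with an outcome that is not given here, so no support is drawn from it. Correlations used 100000 permutations, or all of them within an isolation (scipy 1.17.1). Alternatives were limma 3.58.1 voom with quality weights, DESeq2 1.42.0, the likelihood ratio test, other scalings and filters, a defensin covariate, a replicate block, and each library left out in turn. Leaving out both libraries rich in defensin was added after the data were seen, as was the look at transcript length.

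The members and lists were chosen with earlier results of these data known. All 10 members are named in every comparison. From every other list and comparison up to 4 called genes were eligible by smallest adjusted p, and likeness is given for Atoh1, Dll1, Hes1 and Notch1.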

Additional observations from a re-analysis of the deposited data

Results flagged for a closer look

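Cdkn1a and Xbp1 had age effects that differed between the isolations by the interaction test. Both were flagged by that test, among the listed genes other than cell type markers. The opposite directions of their libraries below restate that choice and are no separate evidence. For Cdkn1a, the age effect in Lgr5-GFP minus that in SM6 was -1.85 on the log2 scale (SE 0.35, edgeR adjusted p = 0.0103). Cdkn1a stood at 46.7, 36.0 and 48.4 CPM (young) and 81.1, 57.0 and 62.3 (old) in SM6, and at 71.8, 41.6 and 47.2 (young) and 19.3, 28.5 and 22.2 (old) in Lgr5-GFP, so old libraries were all above young ones in SM6 and all below them in Lgr5-GFP. For Xbp1, the difference was -1.20 (SE 0.24, edgeR adjusted p = 0.0155). Xbp1 stood at 165, 141 and 149.6 CPM (young) and 219, 227 and 294 (old) in SM6, and at 214, 253 and 204 (young) and 181, 158 and 133 (old) in Lgr5-GFP, again in opposite directions without overlap. Without both libraries rich in defensin, the difference held for Cdkn1a (-1.61, adjusted p = 0.0427) and missed the threshold for Xbp1 (-1.09, adjusted p = 0.0567). The difference for Xbp1 also missed it without Lgr5-GFP old replicate 3 (-1.10, adjusted p = 0.0558) or SM6 young replicate 2 (-1.15, adjusted p = 0.0637). The summed goblet level had a median of 7416 CPM in young and 18895 in old SM6 libraries, and of 7865 and 5046 in those of Lgr5-GFP, and 11 of 14 Paneth, 5 of 9 goblet, 5 of 9 enterocyte and 1 of 12 enteroendocrine markers were called for a difference of the same sign, beside 0.606% of all tested genes. These counts were 2, 6, 5 and 0 when both libraries rich in defensin were left out. Mitochondrially encoded transcripts separated the ages in Lgr5-GFP (4.02 to 6.29% in young and 7.37 to 9.33% in old). The part of either was not tested.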

How the results depend on the processing

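Notch2 was called lower in SM6 and on average under all 11 other settings and with each library left out. In Lgr5-GFP, 1 member, Notch2, was called in place of 0 without Paneth marker and defensin genes, with no filter beyond 1 count, with voom, with the likelihood ratio test, with the replicate block (-1.25, edgeR adjusted p = 0.0455) and without both libraries rich in defensin, and 0 to 1 with single libraries left out. In SM6, 1 member was called in place of 2 with library totals alone, and 1 to 2 with single libraries left out. With the defensin covariate, Notch1 was called (-2.47, adjusted p = 0.0275) and Atoh1 was not, and Notch1 was also called with no filter (-1.87, adjusted p = 0.0437), out of a range of 0.0275 to 0.261 over its settings. The difference between isolations for Atoh1 was called (1 member in place of 0) with no filter (-1.62), the DESeq2 Wald test (-1.59) and the likelihood ratio test (-1.59), with adjusted p from 0.00110 to 0.586 over its settings. DESeq2 gave no adjusted p for 7 member tests. The relation of Atoh1 to goblet markers passed with library totals alone, and 0 relations passed without the 2 farthest libraries. Over all genes, 323 were called in SM6 and 63 in Lgr5-GFP, against 603 and 274 with no filter, and with library totals alone 440 and 97. Of these calls, 73.4% in SM6 and 60.3% in Lgr5-GFP were lower in old, against 85.0% and 39.2% with library totals alone, which moved the median of all genes to -0.16 and 0.16. With single libraries left out, 145 to 404 genes were called in SM6 and 26 to 113 in Lgr5-GFP. In these fits, 67.3 to 84.1% of the SM6 calls were lower in old. The share in Lgr5-GFP ran from 33.3% (without Lgr5-GFP old replicate 3) to 79.3% (without Lgr5-GFP old replicate 2). The cause of these changes was not tested.

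Replicate numbers were treated as names, since libraries sharing a number across groups did not deviate together (correlation -0.08 to 0.13 over 18 pairs, against -0.17 to 0.19 for different numbers). The block changed no other member call.

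Signs turned for members near 0 (log2 values, none of them called). With library totals alone, the sign turned for Hes1 (age difference between isolations 0.30, SM6 -0.076), Hes6 (age difference between isolations 0.11, Lgr5-GFP 0.018, SM6 -0.097) and Rbpj (age difference between isolations 0.36, Lgr5-GFP 0.11). With voom, the sign turned for Dll4 (SM6 0.043), Jag1 (Lgr5-GFP -0.27) and Rbpj (age difference between isolations 0.19). With the defensin covariate, the sign turned for Dll4 (SM6 0.038), Hes1 (Lgr5-GFP -0.20, average -0.0025), Jag1 (age difference between isolations -0.30, Lgr5-GFP -0.45) and Rbpj (age difference between isolations 0.38, Lgr5-GFP 0.14). With the replicate block, the sign turned for Hes1 (age difference between isolations 0.00095), Jag1 (Lgr5-GFP -0.021) and Rbpj (age difference between isolations 0.027). Without both libraries rich in defensin, the sign turned for Dll1 (SM6 0.011), Dll4 (SM6 0.27), Hes1 (Lgr5-GFP -0.041) and Rbpj (age difference between isolations 0.32). With single libraries left out, values crossed 0 for Dll1 (SM6 -0.35 to 0.058), Dll4 (SM6 -0.36 to 0.26), Hes1 (age difference between isolations -0.18 to 0.15, Lgr5-GFP -0.045 to 0.20, SM6 -0.059 to 0.21, average -0.012 to 0.13, isolations -0.0047 to 0.14), Hes6 (SM6 -0.043 to 0.12), Jag1 (age difference between isolations -0.24 to 0.93, Lgr5-GFP -0.73 to 0.45, isolations -0.53 to 0.059), Notch1 (Lgr5-GFP -0.10 to 0.71, isolations -0.011 to 0.69), Notch2 (isolations -0.15 to 0.36) and Rbpj (age difference between isolations -0.39 to 0.27, SM6 -0.36 to 0.30, average -0.23 to 0.10, isolations -0.052 to 0.30). Low counts limit Notch1, Dll4 and Gfi1.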
